A study of Mus musculus with 10 samples.

Results

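The 8 genes described here mark dendritic cells (DCs) and their types, and they were looked up by gene name in the deposited gene table, where all 8 were found, each in a single row, among 54532 genes. They were taken in the order of their roles: Flt3, the growth factor receptor, Zbtb46, a transcription factor of conventional DCs, Clec9a and Batf3 for conventional DCs of type 1 (cDC1), Cd209a and Clec10a for those of type 2 (cDC2) and monocyte-derived DCs, Siglech for plasmacytoid DCs, and Fscn1, an actin-bundling protein, for mature DCs. DCs are the leukocytes that take up antigen in a tissue, carry it to a lymph node and present it to T cells. Their growth depends on the receptor Flt3 and its ligand, and they fall into cDC1, which take up dead cells and present to CD8+ T cells, cDC2, which present mainly to CD4+ T cells, and plasmacytoid cells, which are known for making type I interferon. In the lung they lie in the airway wall and around vessels, and on maturation they turn on a shared migratory program.

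The lungs came from wild-type mice, C57BL/6J by the study's methods. In the increased pulmonary flow (IPF) group, 5 mice had an aortocaval fistula, a puncture joining the abdominal aorta and the inferior vena cava, made at P7 (P, postnatal day), and in the sham group 5 mice had the same operation without the puncture. All 10 lungs were taken at P30 and their mRNA was sequenced as whole tissue, with each library labelled as a separate sample, and p-values measure the spread between these samples. Values are FPKM, fragments scaled by gene length and library size, so levels can be compared between genes, and the number of reads behind each value was recovered from the table. In whole lung, fewer cells of a type and less RNA per cell cannot be told apart.

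Between 15483046 and 19026843 reads per library fell on genes. Sham replicate 1 stood apart by this measure, with a mean Spearman correlation of 0.912 with the other libraries across genes, where the 9 others lay between 0.929 and 0.932, and the counts of calls were therefore also made without it. It had 25486 genes above 0, against 22475 to 23575 in the others. By chi-square per degree of freedom between read counts within a group, IPF replicate 3 (21.0 to 37.3) was as far from its group as sham replicate 1 (17.3 to 25.9) or further. Sex divided the groups: Xist, an X-inactivation RNA, was between 26.8 and 43.2 FPKM in the IPF lungs and between 0.0301 and 0.0767 FPKM in the sham lungs, while Ddx3y of the Y chromosome had no read in any IPF lung and 14.3 to 21.4 FPKM in the sham lungs. The 12 circadian clock genes looked at also all passed the test between the groups, Nr1d1 being at 2.08 ± 1.31 FPKM in IPF and 36.3 ± 5.08 FPKM in sham lungs (SD, n = 5 each), and Arntl having a log2 fold change of 3.63. Operation, sex and clock phase cannot be told apart in these lungs, and this holds for every difference given here.

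None of the 8 genes passed the test between IPF and sham lungs. Genes were tested with limma on log2(FPKM + 0.1) over the 20448 genes with a mean of at least 0.1 FPKM, a filter that all 8 passed, and an adjusted p (Benjamini-Hochberg) under 0.05 counted as passing. By that rule 5.85% of all genes tested passed, 3.71% higher and 2.14% lower in IPF, and 0 of the 8 did. With a further limit of 1 on the absolute log2 fold change it was 1.14% of all genes and 0 of 8. At an unadjusted p under 0.05 it was again 0 of 8, where 19.5% of all genes were below it, and limma voom on the recovered reads also called 0. In 0 of the 8 did the 5 IPF and 5 sham lungs separate without overlap, which 7.29% of all genes did, 4.52% with IPF higher. The differences in the log2 scale were positive for 6 genes and negative for Clec9a and Batf3, with a median of 0.155 against 0.0016 over all genes tested. Of all genes tested, 50.4% were positive. A p above the threshold does not show that the groups were equal, so the 95% interval of each difference is given with the gene.

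**Figure D1:**
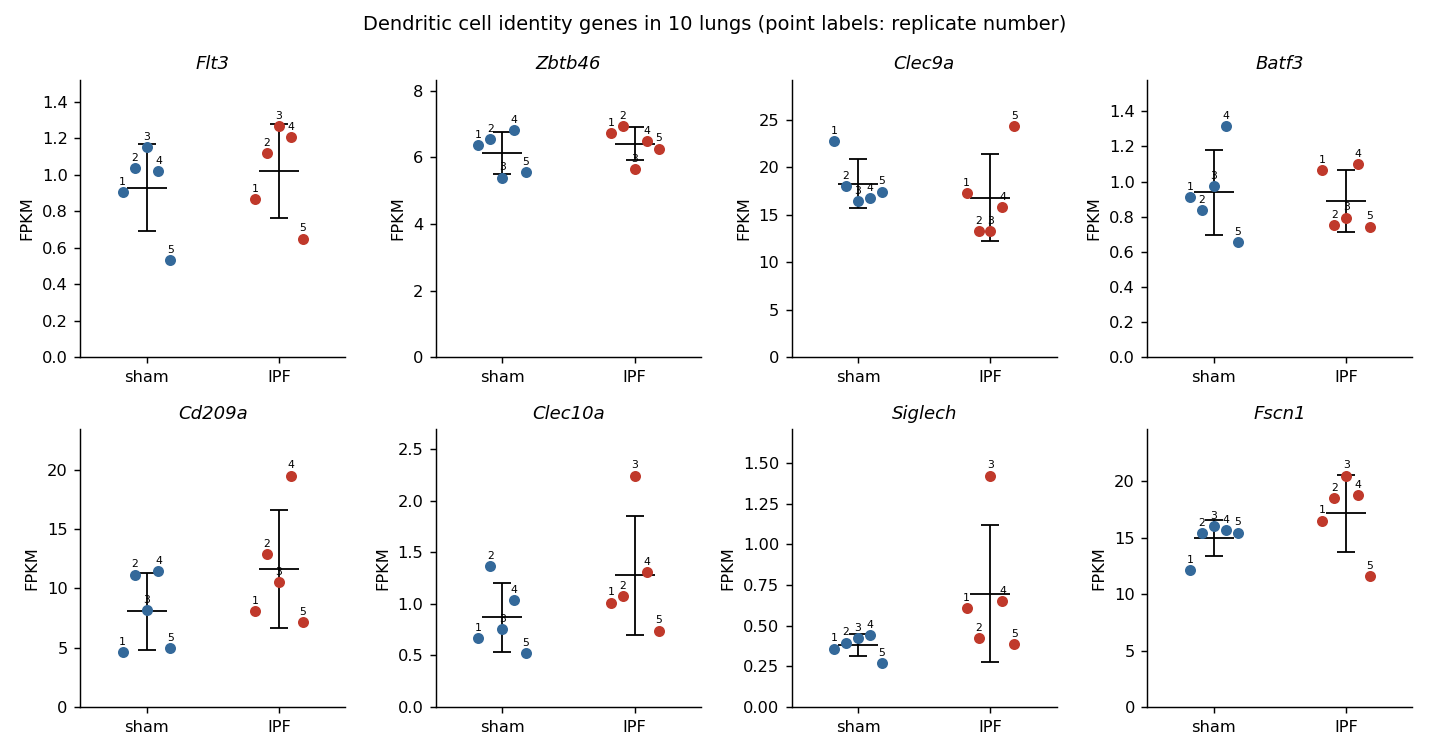
Level of each of the 8 genes (y axis, FPKM, from 0) in the 5 sham lungs (blue) and the 5 IPF lungs (red), with the replicate number beside each point and bars for the mean and SD. The groups overlap in all 8 panels, and the highest lung is IPF replicate 3 for Clec10a, Siglech, Flt3 and Fscn1 and IPF replicate 4 for Cd209a.

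By level, Clec9a (17.6 FPKM over the 10 lungs), Fscn1 (16.1), Cd209a (9.86) and Zbtb46 (6.28) stood above Clec10a (1.07), Flt3 (0.975), Batf3 (0.915) and Siglech (0.538). The step from Zbtb46 to Clec10a, 5.85-fold, was present in all 10 lungs without overlap. All other neighbours in this order overlapped: Flt3 exceeded Batf3 in 5 of 10 lungs and Clec10a exceeded Flt3 in 6 of 10. The low genes rest on few reads, from 14 to 91 for Siglech, 16 to 35 for Batf3 and 23 to 123 for Clec10a, while Zbtb46 had 722 to 1006 and Clec9a 730 to 1420.

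A few regulatory stretches are shown with what each bears on, each running from 250 bases before to 50 bases after the RefSeq transcription start on GRCm38.p6, 5′ to 3′ on the gene's strand. RefSeq's promoter table held 7 of the 8 genes. Clec9a is shown because its start lies inside a neighbouring gene, with the 50 bases after the start in capitals. Flt3, Batf3 and Siglech are shown because clock genes differed between the groups and these hold the letters CACGTG, the E-box that clock transcription factors are known to bind, in capitals. The Batf3 stretch lies wholly inside the gene as the deposited table places it, which starts at 191097847.
Clec9a (chr6:129408612-129408911, + strand): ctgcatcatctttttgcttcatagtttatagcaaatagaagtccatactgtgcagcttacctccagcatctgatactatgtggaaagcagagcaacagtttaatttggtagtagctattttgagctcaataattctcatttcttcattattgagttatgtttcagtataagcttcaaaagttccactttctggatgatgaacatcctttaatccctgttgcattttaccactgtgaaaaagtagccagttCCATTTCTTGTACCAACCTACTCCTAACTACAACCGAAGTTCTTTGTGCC
Flt3 (chr5:147400440-147400739, - strand): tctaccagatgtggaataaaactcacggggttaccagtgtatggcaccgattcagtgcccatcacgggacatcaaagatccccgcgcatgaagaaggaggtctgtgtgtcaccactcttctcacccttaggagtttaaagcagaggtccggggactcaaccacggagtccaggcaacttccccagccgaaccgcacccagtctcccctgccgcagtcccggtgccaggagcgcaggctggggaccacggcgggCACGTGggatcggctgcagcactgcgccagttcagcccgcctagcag
Batf3 (chr1:191098164-191098463, + strand): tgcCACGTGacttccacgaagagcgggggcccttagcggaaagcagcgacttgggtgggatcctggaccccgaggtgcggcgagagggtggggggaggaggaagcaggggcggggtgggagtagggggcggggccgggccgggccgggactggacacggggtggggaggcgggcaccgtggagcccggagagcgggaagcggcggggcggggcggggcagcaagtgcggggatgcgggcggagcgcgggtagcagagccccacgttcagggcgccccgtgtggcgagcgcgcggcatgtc
Siglech (chr7:55767934-55768233, + strand): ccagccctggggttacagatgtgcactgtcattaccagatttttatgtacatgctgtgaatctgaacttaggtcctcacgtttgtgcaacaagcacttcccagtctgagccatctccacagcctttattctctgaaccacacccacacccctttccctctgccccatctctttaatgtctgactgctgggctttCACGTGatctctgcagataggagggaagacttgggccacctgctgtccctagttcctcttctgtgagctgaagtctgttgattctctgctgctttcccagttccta
CACGTG reads the same on both strands. It was found in 3 of the 7 members' stretches and in 7.15% of all 32851 stretches of that length in the table, and the motif was chosen after the sequences had been seen. TATAAA, searched on both strands, was in 3 of 7 (Clec9a, Cd209a and Fscn1) against 13.6% of all. The other motifs searched on both strands were TGACTCA, in 1 of 7 (Zbtb46) against 5.2% of all, and GAGGAAG, in 1 of 7 (Batf3) against 13.6%. A match is a run of letters and not a measured binding site, and none of the 3 genes with CACGTG passed the test.

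Flt3 (ENSMUSG00000042817, GRCm38 chromosome 5, 147330741 to 147400489, - strand) encodes the receptor through which DC precursors receive their growth signal. Flt3 was at 0.866, 1.12, 1.27, 1.21 and 0.650 FPKM in IPF replicates 1 to 5, and at 0.904, 1.04, 1.15, 1.02 and 0.531 FPKM in sham replicates 1 to 5. The lowest lung of each group was replicate 5, and 2 of 5 IPF lungs lay above all sham lungs. The group means were 1.02 ± 0.258 and 0.929 ± 0.239 FPKM (SD, n = 5 per group), and the log2 fold change was 0.13 with a 95% interval from -0.37 to 0.62 (adjusted p = 0.81 by limma). Without sham replicate 5 the sign turned, to -0.04 (adjusted p = 0.943 by limma, with 0.532 to 0.943 over the 10 fits that each lacked a sample). Its ligand, Flt3l, was at 3.95 ± 0.767 FPKM in IPF and 3.29 ± 0.506 FPKM in sham lungs (SD, n = 5 per group), with a log2 fold change of 0.25 (adjusted p = 0.378, limma).

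Zbtb46 (ENSMUSG00000027583, chromosome 2, 181387762 to 181459426, - strand) is expressed in conventional DCs and their committed precursors, and is also known from endothelial cells. Zbtb46 was at 6.74, 6.95, 5.64, 6.49 and 6.26 FPKM in IPF replicates 1 to 5, and at 6.38, 6.54, 5.40, 6.82 and 5.56 FPKM in sham replicates 1 to 5. It was the steadiest of the 8, with the highest lung 1.29 times the lowest, and only IPF replicate 2 lay above all sham lungs. The log2 fold change was 0.06, with a 95% interval from -0.12 to 0.25, or 0.919-fold to 1.19-fold (adjusted p = 0.732 by limma), and it lay between 0.02 and 0.11 over the 10 fits that each lacked a sample.

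Clec9a (ENSMUSG00000046080, chromosome 6, 129408862 to 129424763, + strand) encodes the receptor by which cDC1 recognise exposed actin of dead cells. Clec9a was at 17.3, 13.3, 13.3, 15.9 and 24.4 FPKM in IPF replicates 1 to 5, and at 22.8, 18.1, 16.4, 16.8 and 17.5 FPKM in sham replicates 1 to 5. IPF replicate 5 and sham replicate 1 were the highest lungs of their groups, and 3 of the other 4 IPF lungs lay below all sham lungs. The group means were 16.8 ± 4.56 and 18.3 ± 2.59 FPKM (SD, n = 5 per group), and the log2 fold change was -0.15 with a 95% interval from -0.49 to 0.20 (adjusted p = 0.659 by limma). Single lungs moved it, to -0.29 without IPF replicate 5 (adjusted p = 0.172 by limma), to -0.07 without IPF replicate 2 or 3 and to -0.07 without sham replicate 1 (0.876, 0.86 and 0.885).
Clec9a followed neither the level nor the pattern of Xcr1, another cDC1 gene. Its FPKM was 9.14 to 45.7 times that of Xcr1, the chemokine receptor of cDC1, and 12.7 to 32.8 times that of Batf3. Other genes of the cDC1 list described below were higher than Clec9a on average, Cadm1 at 27.1, Ppt1 at 24.1 and Naaa at 21.1 FPKM. Over the 10 lungs, on deviations from the group means, Pearson's r of Clec9a was -0.799 with Xcr1, -0.965 with Fscn1, -0.092 with Batf3 and 0.855 with Clec1a, given as a description of these lungs. Clec1a stood 411th for likeness to Clec9a among the 13444 genes compared, so many genes followed Clec9a more closely. Clec1a, a C-type lectin known from endothelium, ends 8 bases beyond the end of Clec9a on the opposite strand (chromosome 6, 129424772 to 129452000). It was at 44.2, 25.4, 31.8, 38.5 and 57.7 FPKM in IPF replicates 1 to 5, and between 40.4 and 45.1 FPKM in the sham lungs. Clec9a was 0.387 to 0.523 times Clec1a in every lung. Clec1a varied mainly among the IPF lungs, and sham replicate 1, the sham lung highest in Clec9a, was not the highest in Clec1a. The gene also shares its first 474 bases, the start shown above among them, with Clec1b on the same strand (0.839 to 2.70 FPKM), and holds the intronic transcript Gm43914 (1.11 to 5.82 FPKM), both of which were highest in the same lung of each group as Clec9a. Whether reads of these neighbours were counted to Clec9a was not tested, so it is called here by its name and not as a measure of cDC1.

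**Figure D2:**
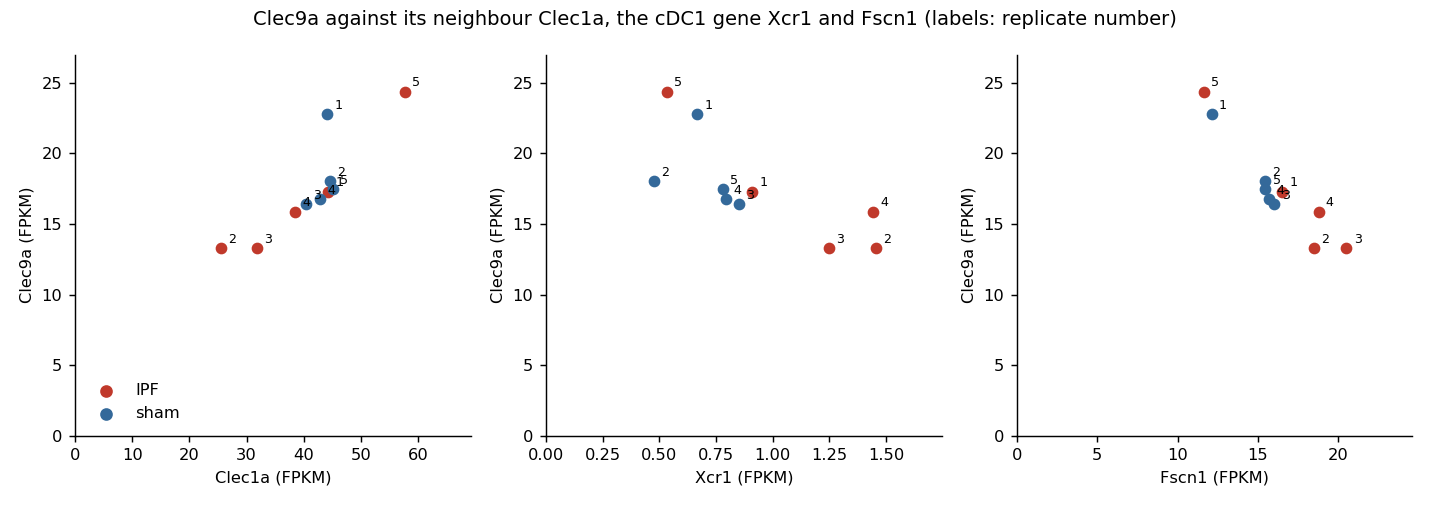
Clec9a (y axis, FPKM) against Clec1a, Xcr1 and Fscn1 (x axes, FPKM, all axes from 0), 1 point per lung, IPF in red and sham in blue, labelled by replicate. Clec9a rises with Clec1a among the IPF lungs, while the sham lungs span only 40.4 to 45.1 FPKM of Clec1a, and it falls with Fscn1 in both groups, with IPF replicate 5 and sham replicate 1 at its upper end.

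Batf3 (ENSMUSG00000026630, chromosome 1, 191097847 to 191108945, + strand) is the transcription factor that cDC1 need to develop. Batf3 was at 1.07, 0.751, 0.795, 1.10 and 0.743 FPKM in IPF replicates 1 to 5, and at 0.912, 0.838, 0.975, 1.32 and 0.657 FPKM in sham replicates 1 to 5. The highest and the lowest lung were both sham lungs, replicates 4 and 5, so that all IPF values lay within the sham range. The log2 fold change was -0.06 with a 95% interval from -0.47 to 0.36 (adjusted p = 0.911 by limma), and it turned to 0.06 without sham replicate 4 (adjusted p = 0.89 by limma, with 0.68 to 0.996 over the 10 fits that each lacked a sample).

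Cd209a (ENSMUSG00000031494, chromosome 8, 3743397 to 3748984, - strand) encodes a mouse relative of DC-SIGN, a lectin of cDC2 and monocyte-derived DCs. Cd209a was at 8.09, 12.9, 10.5, 19.5 and 7.14 FPKM in IPF replicates 1 to 5, and at 4.64, 11.2, 8.18, 11.5 and 4.97 FPKM in sham replicates 1 to 5. Lungs differed widely within both groups: IPF replicate 4 was the highest and sham replicate 1 the lowest, 4.21-fold apart, and IPF replicates 2 and 4 lay above all sham lungs. The means were 11.6 ± 4.94 and 8.08 ± 3.26 FPKM (SD, n = 5 per group), and the log2 fold change was 0.53 with a 95% interval from -0.18 to 1.23, or 0.885-fold to 2.35-fold (adjusted p = 0.405 by limma, and an exact two-sided permutation p of 0.198). Without IPF replicate 4 it was 0.32 (adjusted p = 0.647 by limma).
Clec10a (ENSMUSG00000000318, chromosome 11, 70156197 to 70170834, + strand), also called Mgl1, encodes a galactose-binding lectin of cDC2 and macrophages. Clec10a was at 1.01, 1.08, 2.24, 1.31 and 0.741 FPKM in IPF replicates 1 to 5, and at 0.670, 1.37, 0.752, 1.04 and 0.520 FPKM in sham replicates 1 to 5. IPF replicate 3 alone lay above all sham lungs. The log2 fold change was 0.48 with a 95% interval from -0.16 to 1.13 (adjusted p = 0.405 by limma, exact two-sided permutation p = 0.19). Without IPF replicate 3 it was 0.27 (adjusted p = 0.632 by limma). Mgl2, its neighbour and close relative and a cDC2 marker, was at 14.2 ± 4.50 FPKM in IPF and 13.7 ± 3.83 FPKM in sham lungs (SD, n = 5 per group), with a log2 fold change of 0.04 (adjusted p = 0.959, limma). Reads shared by Clec10a and Mgl2 can have been counted to either gene.

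Siglech (ENSMUSG00000051504, chromosome 7, 55768178 to 55778925, + strand) encodes a receptor on the surface of plasmacytoid DCs. Siglech was at 0.608, 0.426, 1.42, 0.649 and 0.384 FPKM in IPF replicates 1 to 5, and at 0.359, 0.396, 0.423, 0.444 and 0.271 FPKM in sham replicates 1 to 5. IPF replicate 3 stood far above every other lung, and IPF replicates 1 and 4 also lay above all sham lungs, while replicates 2 and 5 fell within the sham range. It had the largest fold change and the smallest p of the 8: the means were 0.698 ± 0.421 and 0.379 ± 0.0679 FPKM (SD, n = 5 per group), and the log2 fold change was 0.62 with a 95% interval from -0.03 to 1.26 (adjusted p = 0.274 by limma, unadjusted 0.0583, exact two-sided permutation p = 0.0635). Without IPF replicate 3 the log2 fold change was 0.35 (adjusted p = 0.402 by limma, with 0.163 to 0.414 over the 10 fits that each lacked a sample). That lung also had the highest summed level of the 10 ciliated airway genes, 105.8 FPKM where the other IPF lungs lay between 25.1 and 33.1 FPKM, and the highest of the 8 lymph node genes, 47.8 FPKM. Those lymph node sums were 29.3 to 47.8 FPKM in IPF replicates 2 to 4, 26.7 FPKM in sham replicate 3 and 5.15 to 9.51 FPKM in the other lungs, so they were high in the IPF lungs with the most Flt3, Cd209a and Clec10a too. Most of each high sum was Ccl21a, at 27.9, 35.3 and 24.7 FPKM in IPF replicates 2 to 4 and 22.9 FPKM in sham replicate 3. The mean log2(FPKM + 0.1) of the list was -1.04 in sham replicate 3, near the -1.07 of IPF replicate 1. The part of the ciliated and lymph node genes in these values was not tested.

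Fscn1 (ENSMUSG00000029581, chromosome 5, 142960343 to 142973185, + strand) bundles actin in the dendrites of mature DCs, and other lung cells express it too. Fscn1 was at 16.5, 18.5, 20.5, 18.8 and 11.6 FPKM in IPF replicates 1 to 5, and at 12.1, 15.4, 16.0, 15.7 and 15.5 FPKM in sham replicates 1 to 5. IPF replicates 1 to 4 lay above all sham lungs and IPF replicate 5 below all of them. The means were 17.2 ± 3.41 and 15.0 ± 1.60 FPKM (SD, n = 5 per group), and the log2 fold change was 0.18 with a 95% interval from -0.13 to 0.49 (adjusted p = 0.532 by limma). Without IPF replicate 5 it was 0.31 (adjusted p = 0.0733 by limma), and the 9 fits without another sample gave an adjusted p of 0.535 to 0.758. IPF replicate 5 was the lowest IPF lung for 6 of the 8 genes, all but Zbtb46 and Clec9a. Among the IPF lungs it had the highest sum of the 11 neutrophil genes, 311.9 FPKM against 58.95 to 91.26 FPKM. Its sum of the 12 clock genes was also the highest of the IPF lungs, 142.4 FPKM against 68.5 to 83.3 FPKM. The sham lungs were at 273.6 to 327.7 FPKM for the clock genes. The part of the neutrophil and clock genes in these values was not tested. The endothelial and mesenchymal genes checked beside it showed a median of 0.08 on that scale, with 1 of 8 passing, Pdgfra, which was higher in IPF (log2 fold change 0.35, adjusted p = 0.0212 by limma).

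The 8 genes did not vary as a single group between lungs. On deviations from the group means over 10 lungs, 11 of the 28 pairs had a Pearson's r above 0.5 and 5 had one below -0.5, all 5 of them with Clec9a, and the median was 0.29. These values describe 10 lungs that share library depth and tissue sampling. Clec10a and Siglech had the highest r (0.82), followed by Flt3 with Clec10a (0.76) and Flt3 with Cd209a (0.71). Among 13445 genes with a mean of at least 1 FPKM, the pattern most like Flt3 was that of Asb2 (r = 0.98) and of Cd207 (0.98), the latter encoding langerin, a lectin of Langerhans cells and of some conventional DCs. Those most like Cd209a were Cyp51 (0.98) and Fgd2 (0.94), and Mgl2 (0.94) was the fourth. Clec9a was most like Cep85l and Tns2 (both 0.98), Batf3 like Psd (0.94) and Maz (0.93), Zbtb46 like Dlgap4 (0.92) and Mir7211 (0.91), Clec10a like Ift22 (0.95) and Ccdc151 (0.91), Siglech like Ehf (0.97) and Vpreb3 (0.96), and Fscn1 like Tmx2 and Elovl1 (both 0.96). These were picked as the highest of all genes compared, so their r has no test.

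Of 70 other DC genes on 5 lists, 67 could be tested, and 11 were higher and 1 lower in IPF at an adjusted p under 0.05 (17.9%, beside 5.85% of all genes), with a median log2 fold change of 0.22 over the 67. Several are shared with other leukocytes or are known as interferon-induced or clock-linked, as said with each. Of the 12 genes, Nfil3, Snx22, Cd300a, Cd40 and Relb kept an adjusted p under 0.05 in all 10 fits that left out a sample, and of these Relb was at 0.0637 with IPF replicate 3 and sham replicate 1 both left out (limma). The count of higher genes fell to 6 without IPF replicate 2, 5 without IPF replicate 4 and 7 without sham replicate 2, and to 6 without that pair. Over all genes tested, the higher count also fell, from 759 with all lungs to 509, 484, 543 and 501 in those fits.

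**Figure D3:**
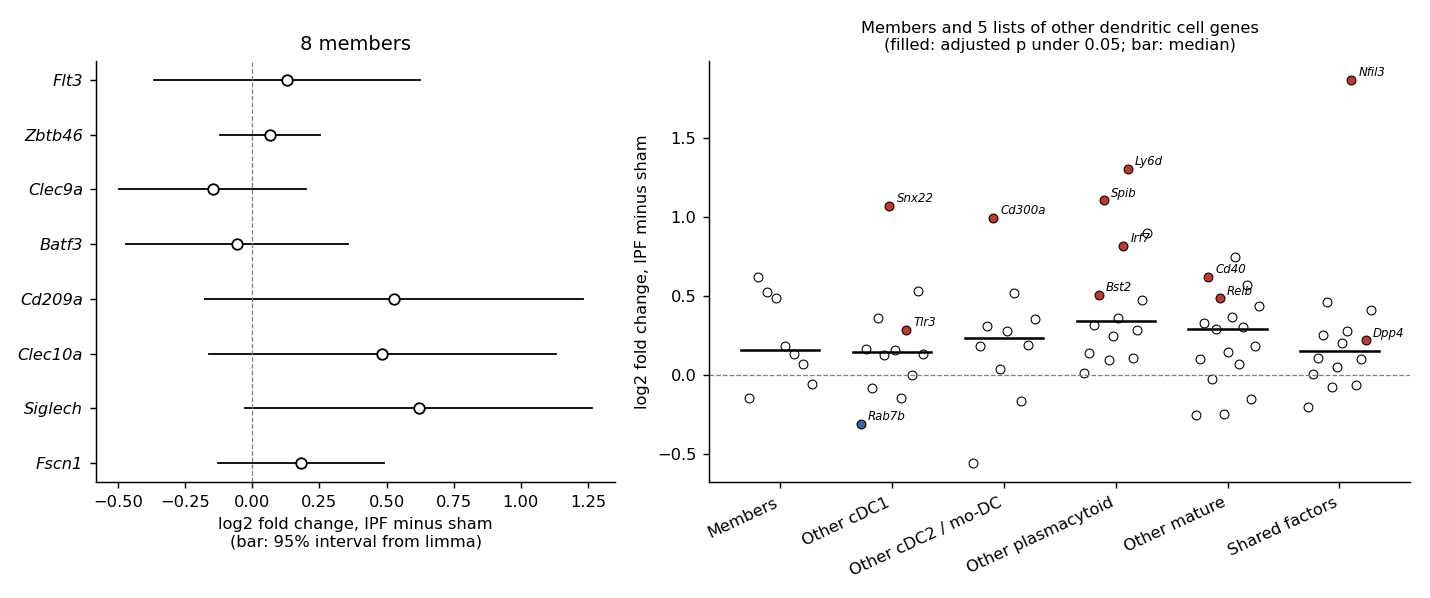
Left, log2 fold change (x axis, IPF minus sham) of the 8 genes with 95% intervals from limma, all of which include 0. Right, log2 fold changes (y axis) of the 8 genes and of the other DC genes by list, with filled points for an adjusted p under 0.05, red if higher and blue if lower in IPF, and bars for list medians of 0.16, 0.14, 0.23, 0.34, 0.29 and 0.15 from left to right.

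Of 12 other cDC1 genes, 2 rose and 1 fell. Snx22, a sorting nexin, was at 6.23 ± 1.17 FPKM in IPF and 2.89 ± 0.347 FPKM in sham lungs (SD, n = 5 per group), with a log2 fold change of 1.07 (adjusted p = 0.00136, limma). Tlr3, the receptor for double-stranded RNA that cDC1 carry, rose by 0.29 in log2 units (adjusted p = 0.0418) and Rab7b fell by 0.31 (0.0358), each without overlap of the groups and each passing in 3 of the 10 fits that left out a sample. Xcr1, the most specific of the list, was at 0.910, 1.46, 1.25, 1.44 and 0.533 FPKM in IPF replicates 1 to 5 and between 0.476 and 0.853 FPKM in sham lungs, with 4 of 5 IPF lungs above all sham lungs (log2 fold change 0.53, adjusted p = 0.289 by limma). Irf8, which cDC1 and plasmacytoid DCs need, had a log2 fold change of 0.36 (adjusted p = 0.108 by limma).
Of 10 cDC2 and monocyte-derived DC genes tested, 1 rose: Cd300a, an inhibitory receptor of many myeloid cells, from 0.943 ± 0.190 to 1.97 ± 0.280 FPKM (SD, n = 5 per group), with a log2 fold change of 0.99 (adjusted p = 0.00379, limma). Irf4, the transcription factor of cDC2, had a log2 fold change of 0.28 (adjusted p = 0.37 by limma).
Of 14 plasmacytoid genes tested, all 14 had a positive log2 fold change, as did 50.4% of all genes tested. Of the 14, 4 rose, beside 3.71% of all genes. Their summed level was 199.1 to 219.3 FPKM in IPF and 111.2 to 175.3 FPKM in sham lungs, most of it Bst2 (145.8 and 103.6 FPKM on average). Ly6d (log2 fold change 1.31, adjusted p = 0.0178 by limma) and Spib (1.11, 0.0268) are also B cell genes, and Irf7 (0.82, 0.0462) and Bst2 (0.51, 0.0296) are also induced by interferon in many cell types. Tcf4, the defining transcription factor of plasmacytoid DCs, was at 9.12 ± 1.24 and 8.25 ± 0.635 FPKM (SD, n = 5 per group), with a log2 fold change of 0.14 (adjusted p = 0.477, limma). Ly6d passed in 8, Spib in 4, Bst2 in 4 and Irf7 in 3 of the 10 fits that left out a sample, and the adjusted p of Spib and Irf7 was highest without sham replicate 1 (0.0746 and 0.11 from limma). Without IPF replicate 2, and without IPF replicate 4, 0 of the 14 passed by limma. In those fits 509 and 484 of all genes tested were higher, against 759 with all lungs.
Of 17 mature DC genes tested, Cd40 (log2 fold change 0.62, adjusted p = 0.00774 by limma) and Relb (0.48, 0.0127) rose, without overlap of the groups. Both serve antigen presentation, and B cells express both. Ccr7, the receptor that guides DCs to lymph nodes and that T cells also carry, had a log2 fold change of 0.44 (adjusted p = 0.158 by limma), and the chemokine Ccl22 one of 0.36 (0.688). Of the 17, 13 were positive, where 50.4% of all genes tested were, and 4 negative. At an unadjusted p under 0.05 by limma there were 10 of the 17, beside 19.5% of all genes. Among the positive were Traf1 (0.33, adjusted p = 0.066 by limma), Cd83 (0.57, 0.1), Ccl5 (0.75, 0.123) and Cd274 (0.29, 0.256). Among the negative were Il15ra (-0.26, adjusted p = 0.215 by limma), Birc3 (-0.25, 0.136) and Socs2 (-0.15, 0.147). Without IPF replicate 5, 3 of the 17 were higher and 2 lower at an adjusted p under 0.05.
Of 14 growth factor, receptor and transcription factor genes shared by DC types, 2 rose. The mean log2(FPKM + 0.1) of the list was 3.65 in the lowest IPF lung and 3.46 in the highest sham lung, and without Nfil3 these were 3.69 and 3.64. Nfil3, which cDC1 development requires and which the circadian clock also controls, was at 7.88 ± 1.00 FPKM in IPF and 2.11 ± 0.406 FPKM in sham lungs (SD, n = 5 per group), with a log2 fold change of 1.87 (adjusted p = 4.15e-05, limma). Dpp4, a surface peptidase, rose by 0.22 (adjusted p = 0.0208 by limma). Itgax, which encodes CD11c, was at 7.94 ± 1.13 and 8.36 ± 0.965 FPKM (SD, n = 5 per group), with a log2 fold change of -0.08 (adjusted p = 0.743, limma).

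B cell genes were higher in the IPF lungs, and so were part of the general leukocyte and monocyte genes. Of 12 pan-leukocyte genes, 6 rose at an adjusted p under 0.05, with a median log2 fold change of 0.47, among them Rac2 (log2 fold change 0.61, adjusted p = 0.00422 by limma), Ptprc, which encodes CD45 (0.42, 0.00825), Arhgdib (0.50, 0.032) and Cd52 (0.83, 0.0379). Rac2 and Ptprc passed in all 10 fits that left out a sample, Arhgdib in 4 and Cd52 in 3. Their summed level was 311.6 to 378 FPKM in IPF and 181.5 to 276.7 FPKM in sham lungs, sham replicate 1 being the lowest. Of 10 B cell genes 9 rose (median 0.83), of 11 monocyte genes 5 rose (0.66), of 11 T cell genes 2 rose (0.43), of 15 macrophage genes 1 rose (0.28) and of 11 neutrophil genes 0 passed (0.97, with 6 at an unadjusted p under 0.05 by limma). Over the 10 fits that each lacked a sample, 8 to 9 B cell genes, 2 to 8 pan-leukocyte genes, 2 to 5 monocyte genes, 0 to 2 T cell genes and 1 to 2 macrophage genes were higher. Without sham replicate 1 these counts were 9, 7, 2, 0 and 1, the pan-leukocyte count was 2 without IPF replicate 2, 3 or 4 or sham replicate 4, and 3 ciliated genes were lower without IPF replicate 3. Over all genes tested, 484 to 946 were higher in the 10 fits, and 759 with all lungs. In the other lists checked, 0 of 6 lymph node, 0 of 1 thymus and 0 of 10 ciliated airway genes passed by limma (1, 0 and 0 at an unadjusted p under 0.05). The summed level of the B cell genes was 95.9 to 137 FPKM in IPF and 52.9 to 78.6 FPKM in sham lungs, and of the T cell genes 27.2 to 35.4 and 18.7 to 27.2 FPKM. The monocyte sums overlapped, at 251.4 to 410.3 FPKM in IPF and 322.8 to 358.8 FPKM in sham lungs, most of them Ace, which endothelium also expresses (255.6 and 306.4 FPKM on average, log2 fold change -0.28, adjusted p = 0.254 by limma). The B cell genes with the smallest p were Ighm (log2 fold change 0.96), Ms4a1 (1.19), Cd79a (1.02) and Cd22 (0.83), with limma adjusted p from 0.000338 to 0.00596. Among monocyte genes they were Ly6c2 (1.01), Plac8 (1.55), Treml4 (1.17) and Ccr2 (0.66), with adjusted p from 0.00143 to 0.0244. Cx3cr1 was the macrophage gene that rose (0.97, adjusted p = 0.00118), and Thy1 (0.45, 0.0213) and Cd4 (0.48, 0.044) were the T cell genes. Of the lists without a call, the genes with the smallest p and the highest level were Mmp8 (1.03, 0.0924) and S100a9 (1.46, 0.186) for neutrophils, Fcer2a (0.47, 0.152) and Ccl21a (1.28, 0.41) for lymph node, Ccdc153 (-0.57, 0.424) and Foxj1 (-0.16, 0.861) for ciliated cells, and Prss16 (0.16, 0.847) for thymus. None of these lists but thymus held a gene at 0 in all lungs. The part of B cell RNA in the genes that DCs share with B cells was not tested.

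**Figure D4:**
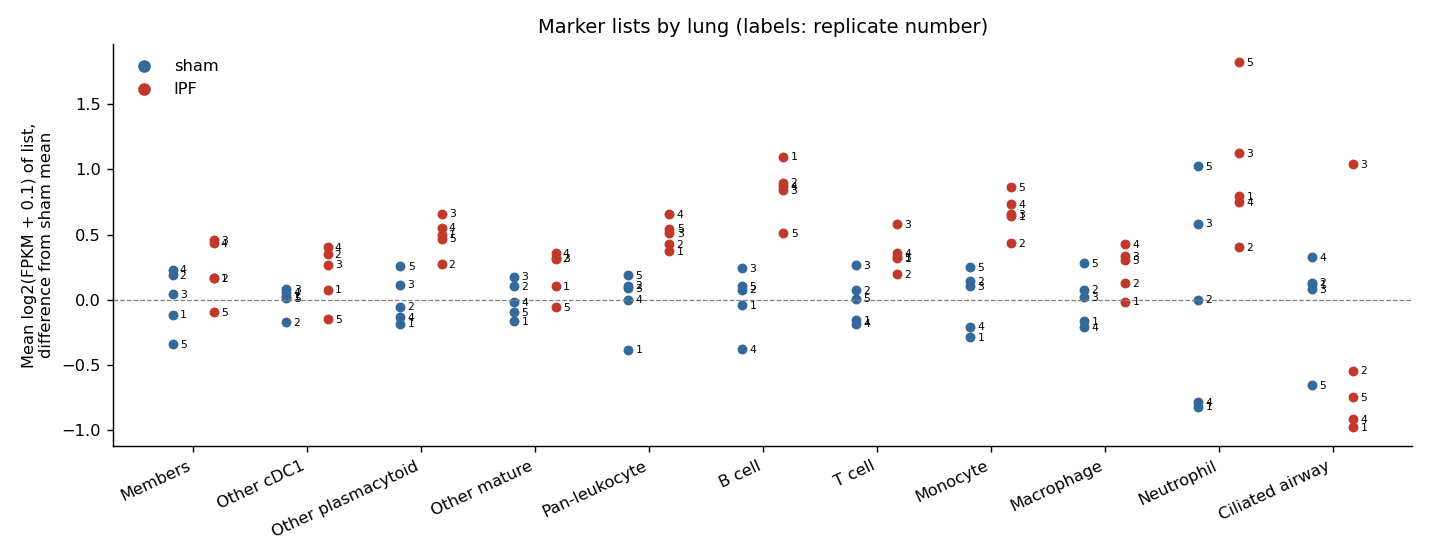
Mean log2(FPKM + 0.1) of each marker list in each lung, as the difference from the sham mean (y axis, log2), sham in blue and IPF in red, labelled by replicate. Among the lists plotted, the pan-leukocyte, B cell, monocyte and, narrowly, plasmacytoid means of the IPF lungs lie above those of all sham lungs, and the means of the 8 genes overlap between the groups.

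Set against the pan-leukocyte genes, 6 of the 8 genes were lower in IPF than in sham lungs on average, as were 91.9% of all genes tested, so the count says nothing particular about these genes. The mean log2(FPKM + 0.1) of the 12 pan-leukocyte genes was 4.64 ± 0.110 in IPF and 4.14 ± 0.224 in sham lungs (SD, n = 5 each), 0.50 higher in IPF, so subtracting it lowers every difference by that amount. With that mean subtracted in each lung, the difference between IPF and sham was -0.65 for Clec9a, -0.56 for Batf3, -0.44 for Zbtb46, -0.37 for Flt3 and -0.32 for Fscn1. It was -0.02 for Clec10a, 0.03 for Cd209a and 0.12 for Siglech. After this subtraction 4 of 5 IPF lungs lay below all sham lungs for Clec9a, 3 of 5 for each of Zbtb46, Batf3 and Fscn1, and 1 of 5 for Flt3. Over all genes tested, 68.2% had at least 3 IPF lungs below all sham lungs and 54.8% at least 4, and the median difference was -0.50. These are descriptions on a reference that itself differed between the groups. With the pan-leukocyte mean as a covariate in limma, where group and covariate move together, the log2 fold changes lay between -0.20 (Cd209a) and 0.62 (Siglech), all 8 intervals included 0, and the smallest adjusted p was 0.678 (Zbtb46).

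**Figure D5:**
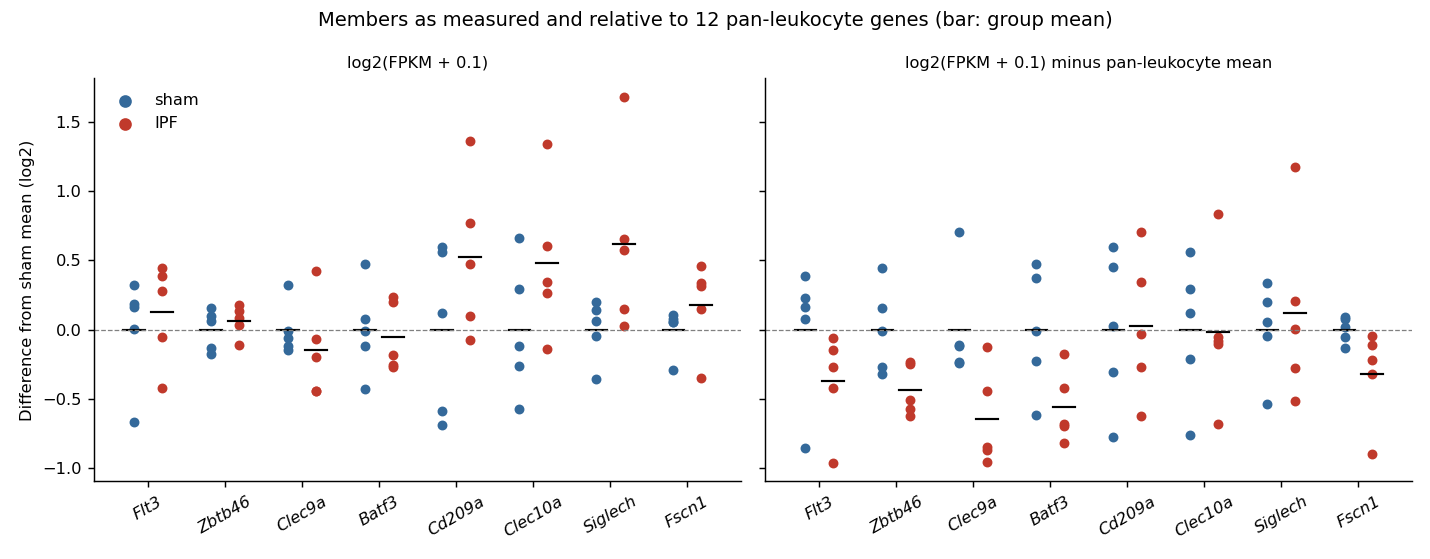
The 8 genes in each lung as the difference from the sham mean (y axis, log2), on log2(FPKM + 0.1) at left and after subtraction of the mean of 12 pan-leukocyte genes at right, sham in blue and IPF in red, with bars for group means. The IPF means of 6 of the 8 genes are above 0 at left, and those of 6 are below 0 at right.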

How the data were processed

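Total RNA of whole lung was sequenced by the authors, who trimmed reads with Fastp, aligned them with HISAT2 and quantified genes with StringTie. The sample records name NEBNext Ultra for the libraries and the paper KAPA mRNA HyperPrep. The submitters' processing notes also list Bowtie 0.12.2. The methods name GRCm39, but positions in the deposited table run past the end of chromosome 1 in GRCm39 annotation (last gene end 195323493) and were read as GRCm38. The deposited FPKM values are scaled by gene length and library size by the authors. Reads were recovered as FPKM times length over the smallest step of each library, and 100% of values came within 0.1 of a whole read. These whole reads, 15483046 to 19026843 per library, set the precision. Intervals rest on the spread between samples.

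Groups came from sample titles. Genes averaging 0.1 FPKM or more were fitted with limma 3.58.1 in R 4.3.3 (trended empirical Bayes, no covariate) on log2(FPKM + 0.1), a scale that understates changes of low genes, and p-values were adjusted by Benjamini-Hochberg over 20448 genes. The paper's DESeq2 was not run here. Exact permutation tests used all 252 assignments, with 0.00794 the smallest p possible. The fit was tested on simulated data. Same-numbered IPF and sham lungs did not deviate together (correlations -0.02 to 0.095), so no block was used. None of the 20 pairs of libraries within a group agreed within sampling noise. All 8 members were named by rule, and from each other list up to 4 passing genes, or those with the smallest p or the highest level. Genes most alike were the 2 with the highest r. The members and lists were chosen with earlier results of these data known, and Clec1a and the genes named without passing were chosen after their values were seen. Sept3, turned into a date in the table, was matched by its ID. Of 2 rows each for Ccl21a and Ccl19, the higher was used. Alternatives were pseudocounts of 1 and 0.01, other filters, scalings and variance models, voom, a replicate block, a leukocyte covariate, and leaving out samples. Tables used Python 3.11.15, pandas 2.3.3 and numpy 2.4.6.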

Additional observations from a re-analysis of the deposited data

Results flagged for a closer look

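In 3 of 16 groups of 5 lungs (8 genes in IPF and sham), the highest or lowest lung lay further from its neighbour than Dixon's 95% limit for 5 samples allows, where chance flags about 1 group in 20. Siglech in IPF replicate 3 was at 1.42 FPKM and the next IPF lung at 0.649 FPKM. Clec9a in sham replicate 1 was at 22.8 FPKM, with the next sham lung at 18.1 FPKM. Fscn1 in the same lung was at 12.1 FPKM, with the next sham lung at 15.4 FPKM. Sham replicate 1 had the lowest mean Spearman correlation with the other libraries. Without it the log2 fold changes of Clec9a and Fscn1 were -0.07 and 0.11.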

How the results depend on the processing

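The 8 genes had 0 calls at an adjusted p under 0.05 in each fit but the replicate block (5 of the 8 were tested where the filter was a mean of at least 1 FPKM). The block called 1, Cd209a (log2 fold change 0.53, adjusted p = 0.0307 by limma). The numbers do not mark a known pairing, and with the block 7 other DC genes were higher and 0 lower. Signs turned with the pan-leukocyte covariate for Clec9a (0.10), Batf3 (0.0756), Cd209a (-0.20, from 0.53) and Fscn1 (-0.0883), for Batf3 when samples were left out in turn (-0.163 to 0.0625), for Flt3 likewise (-0.0383 to 0.265) and for Clec9a with IPF replicate 3 and sham replicate 1 both left out (0.00866), a setting chosen after seeing the data. That setting gave 501 higher genes of all tested, and 6 higher and 0 lower other DC genes. The covariate left 16 higher and 9 lower genes of all tested, and 1 higher (Nfil3) and 0 lower other DC genes, while the log2 fold changes without a call were at least as large as before for Snx22 (1.18), Relb (0.59) and Rab7b (-0.36) and smaller for the other 8: Bst2 (0.16), Ly6d (0.48), Cd300a (0.52), Tlr3 (0.12), Cd40 (0.47), Dpp4 (0.17), Irf7 (0.61) and Spib (0.82). Without the variance trend 6 other DC genes were higher. Leaving out each sample in turn gave 484 to 946 higher and 264 to 673 lower genes of all tested, 5 to 13 higher and 0 to 3 lower other DC genes, and 0 members. The cause of these moves was not tested. Depth limits Siglech and Batf3 most, with as few as 14 and 16 reads in a lung. Each group has 5 lungs.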
